A study of Homo sapiens with 6 samples.

Results

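Described here are 10 genes of the microRNA pathway, out of 60651 genes counted: the host transcripts MIR17HG, MIR34AHG and MIRLET7BHG, the RNA-binding protein gene LIN28B, and the machinery genes DROSHA, DGCR8, XPO5, DICER1, AGO1 and AGO2. They were taken by name, for their known ties to MYCN or to microRNA processing, with earlier results of these data known. RNA was measured in SK-N-AS cells, a neuroblastoma line without MYCN amplification, carrying a tetracycline-inducible MYCN construct and the tetracycline repressor. The 3 control libraries (titled ETOH) and the 3 MYCN-induced libraries (titled Tet, for tetracycline added over 5 days) were labelled 120 h. Both groups carry the same construct, were kept as single clones in G418 and blasticidin, and differ by tetracycline, so that the comparison covers 1 engineered line and an effect of tetracycline itself cannot be told apart from that of MYCN. None of the members was called higher or lower in the 6 libraries, and MIR17HG was above all controls in 2 of the 3 induced libraries and below them in the other.

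MicroRNAs are cut from long transcripts. In the nucleus, DROSHA with its partner DGCR8 releases a hairpin, XPO5 carries it to the cytoplasm, DICER1 trims it to a short duplex, and an Argonaute protein such as AGO1 or AGO2 holds 1 strand and uses its seed to find target mRNAs. MIR17HG carries the miR-17-92 cluster, an oncogenic cluster that MYC proteins are known to activate, MIR34AHG carries miR-34a, a target of p53, and MIRLET7BHG carries let-7a-3 and let-7b. LIN28B, known as an oncogene in neuroblastoma, blocks the maturation of let-7, and MYCN mRNA is itself a target of let-7 and miR-34a.

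The mature microRNAs that the 3 host transcripts can give rise to show which other loci act through the same seed. The sequences were taken from RefSeq on GRCh38.p14, where all 19 mature names looked up were found, and bases 2 to 8, the seed, are in capitals. The first group is the miR-17 seed, shared by miR-17 and miR-20a of MIR17HG with miR-106b and miR-93, whose hairpins lie in the gene MCM7. In MIR17HG, miR-17-5p spans chr13:91350618-91350640 and miR-92a-3p, the last of the cluster, chr13:91351361-91351382, both on the plus strand within annotated exons.
miR-17-5p: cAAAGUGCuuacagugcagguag
miR-20a-5p: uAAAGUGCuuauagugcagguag
miR-106b-5p: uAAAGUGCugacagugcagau
miR-93-5p: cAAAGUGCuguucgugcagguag

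The other members of MIR17HG carry 3 further seeds. The seed of miR-18a is its own among those printed, miR-19a and miR-19b share theirs, and miR-92a shares its seed with miR-25 of MCM7.
miR-18a-5p: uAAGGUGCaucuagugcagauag
miR-19a-3p: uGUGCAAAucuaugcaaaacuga
miR-19b-3p: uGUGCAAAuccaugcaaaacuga
miR-92a-3p: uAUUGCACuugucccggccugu
miR-25-3p: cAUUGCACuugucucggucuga

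Sequences of let-7 are shown because 9 mature forms, from 12 hairpins in different host genes, share a seed, so that MIRLET7BHG is only one of their sources. The hairpins of let-7a-3 and let-7b lie in exons of MIRLET7BHG, with the mature let-7b-5p at chr22:46113691-46113712 on the plus strand, and miR-34a-5p lies in an exon of MIR34AHG at chr1:9151735-9151756 on the minus strand. The miR-34a seed was shared with none of the others printed.
let-7a-5p: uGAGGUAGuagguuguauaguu
let-7b-5p: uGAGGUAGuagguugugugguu
let-7i-5p: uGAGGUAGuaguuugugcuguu
miR-98-5p: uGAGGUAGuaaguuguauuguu
miR-34a-5p: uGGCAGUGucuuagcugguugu

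The 6 libraries held 64500589 to 102249336 counts of read pairs in genes. MYCN itself, at 30.3 to 35.5 CPM (counts scaled by library total and TMM factor) in the control libraries and 199 to 221 CPM in the induced libraries, differed in the labelled direction, with a log2 fold change of 2.68 (SE 0.08). The induced library of replicate 3 stood apart from the others, at 40.2 on the first principal component (50.5% of the variance) against 6.27 and 6.31 in the other induced libraries and -24.2 to -12.7 in the controls. Of 9 adrenergic neuroblastoma markers, 9 were detected in every library, with HAND2 at 349 to 559 CPM and TH no higher than 1.58 CPM, and their summed level was 928 to 1319 CPM in control and 938 to 1135 CPM in induced cells. The summed level of 9 mesenchymal markers was 520 to 543 CPM in control and 598 to 675 CPM in induced cells, and CD44 was listed at 0. Most of this sum was VIM, at 360 to 372 CPM in control and 420 to 475 CPM in induced cells. Of the 8 tested mesenchymal markers, 7 had a log2 fold change above 0 (median 0.29), of which 0 were called by edgeR and 5 had an unadjusted p under 0.05, and FN1, the one below 0, was called lower at -0.71. Markers of other cell types (9 genes) summed to at most 3.72 CPM in any library, with CD3E and MS4A1 at 0.

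**Figure D1:**
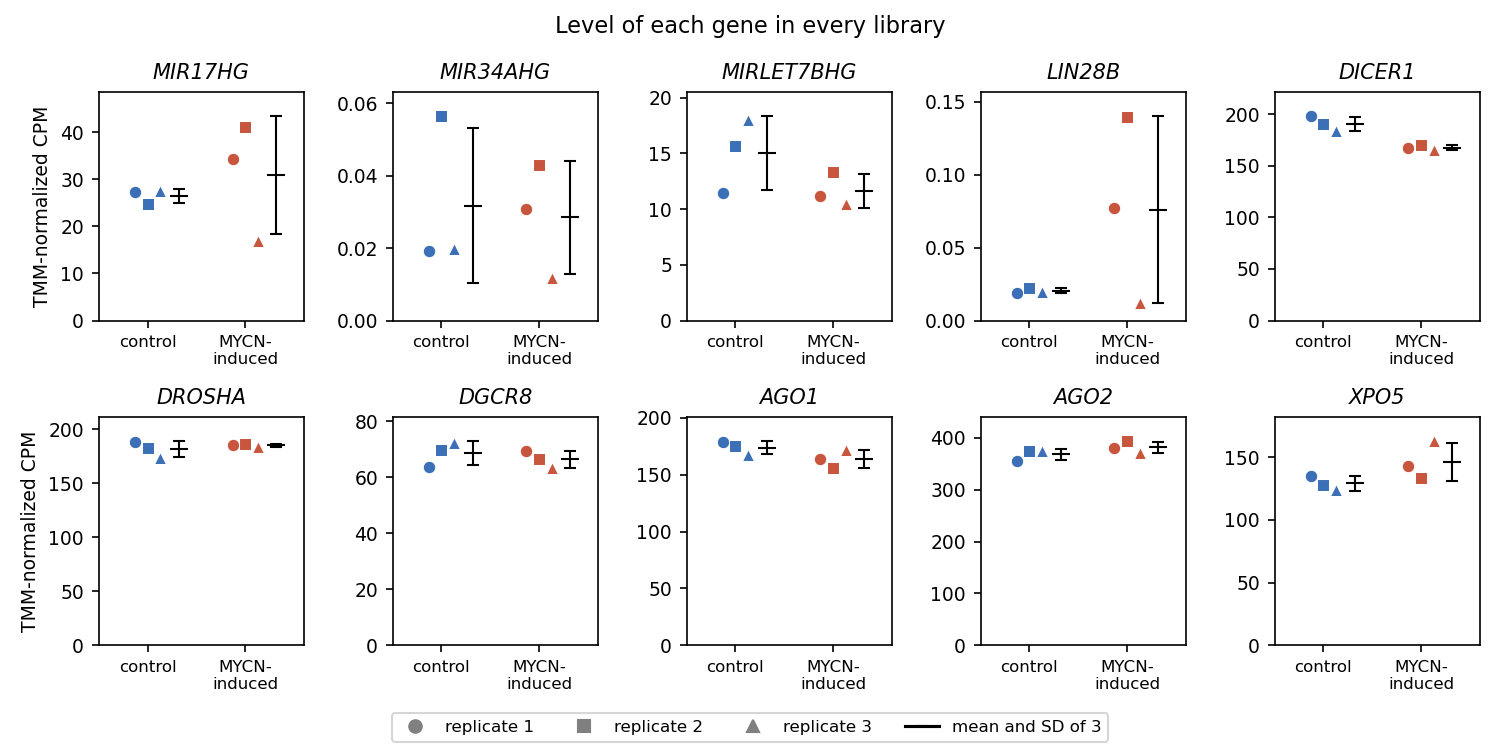
Level of each of the 10 genes in TMM-normalized CPM (vertical axis, from 0) in the 3 control libraries (blue) and the 3 MYCN-induced libraries (red); black marks give the mean and SD. DICER1 is lower in all induced libraries, from 165 to 170 CPM against 184 to 198 CPM, while MIR17HG at 16.9, 34.4 and 41.2 CPM lies on both sides of its controls.

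Levels of the 10 genes covered a wide range. Levels per length are given in TPM (counts divided by exon length, then scaled by the sum of these values in the library). In the control libraries, DROSHA (38.3 ± 3.50, SD, n = 3) and AGO2 (38.1 ± 1.03) were the highest and overlapped each other. XPO5 (25.03 ± 2.38) and DICER1 (24.7 ± 2.18) followed, then AGO1 (20.6 ± 1.68), DGCR8 (15.4 ± 0.24), MIR17HG (11.6 ± 0.89) and MIRLET7BHG (4.27 ± 0.74). The ranges of XPO5 and DICER1 overlapped, although XPO5 was the higher of the pair within each of the 6 libraries, and all other neighbours down to MIRLET7BHG were separated in the control libraries. MIR34AHG and LIN28B were near 0, at 0.00597 and 0.00565 TPM. In induced cells the mean of AGO2 (39.7 ± 6.15 TPM) lay above that of DROSHA (39.1 ± 5.25 TPM), again with overlapping ranges, and MIR17HG (13.9 ± 6.94 TPM) was no longer separated from DGCR8 (14.9 ± 2.36 TPM).

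In MYCN-induced against control cells, 298 of 29086 tested genes (1.02%) were called higher and 692 (2.38%) lower. The threshold was an adjusted p of 0.05 (edgeR quasi-likelihood test with Benjamini-Hochberg adjustment). Of the 10 members, 8 had enough counts to be tested, and 0 were called in either direction by edgeR. DESeq2 also called 0. By edgeR 1 (DICER1, lower) had an unadjusted p under 0.05, as did 2365 of all 29086 tested genes in the higher and 3080 in the lower direction. The median log2 fold change of these 8 was -0.01, and that of all tested genes was 0.00. Groups that did not overlap were found for 1 of the 8, DICER1, in the lower direction; among all tested genes 11.5% were higher and 14.7% lower without overlap. In bulk RNA, fewer cells that express a gene and less RNA of it per cell cannot be told apart. The labels do not say that the 3 libraries of a group came from separate cultures, whereas the study describes independent biological experiments, and p-values measure the spread between these libraries.

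MIR17HG (ENSG00000215417, chromosome 13, 91347820 to 91354579 on the plus strand of GRCh38) is the non-coding transcript around the miR-17-92 hairpins. Its levels were 27.3, 24.8 and 27.6 CPM in control replicates 1 to 3, and 34.4, 41.2 and 16.9 CPM in the induced replicates. Replicates 1 and 2 of the induced cells lay above every control library and replicate 3 lay below every one, so the groups overlapped and the spread in induced cells (12.5 CPM, SD) far exceeded that in controls (1.49 CPM). The log2 fold change was 0.22 (SE 0.28, 95% interval -0.42 to 0.86), with an edgeR adjusted p of 0.736.

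Without the induced library of replicate 3, MIR17HG was called higher, with a log2 fold change of 0.52 (SE 0.09) and an edgeR adjusted p of 0.0213. In that fit 3.68% of 28797 tested genes were called higher and 4.44% lower. Without the induced library of replicate 2 the value turned to -0.05 (SE 0.27, adjusted p 0.953). The library that decides the call also differed in proliferation genes: the median of 18 proliferation genes, as the difference of log2(CPM + 1) from the control mean, was 0.15 in induced replicates 1 and 2 and -0.58 in replicate 3. MKI67, a marker of cycling cells, was at 644, 620 and 591 CPM in the controls and at 598, 614 and 287 CPM in the induced replicates. The proliferation genes did not all fall in induced replicate 3. MCM5 was at 103 CPM there against 74.3 to 97.5 CPM in control, and MCM2, at 76.9 CPM, lay within its control range. The median of 16 tested genes of the integrated stress response on the same scale was 0.73, 0.34 and 2.62 in the induced replicates. What part these differences between libraries have in the level of MIR17HG was not tested.

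**Figure D2:**
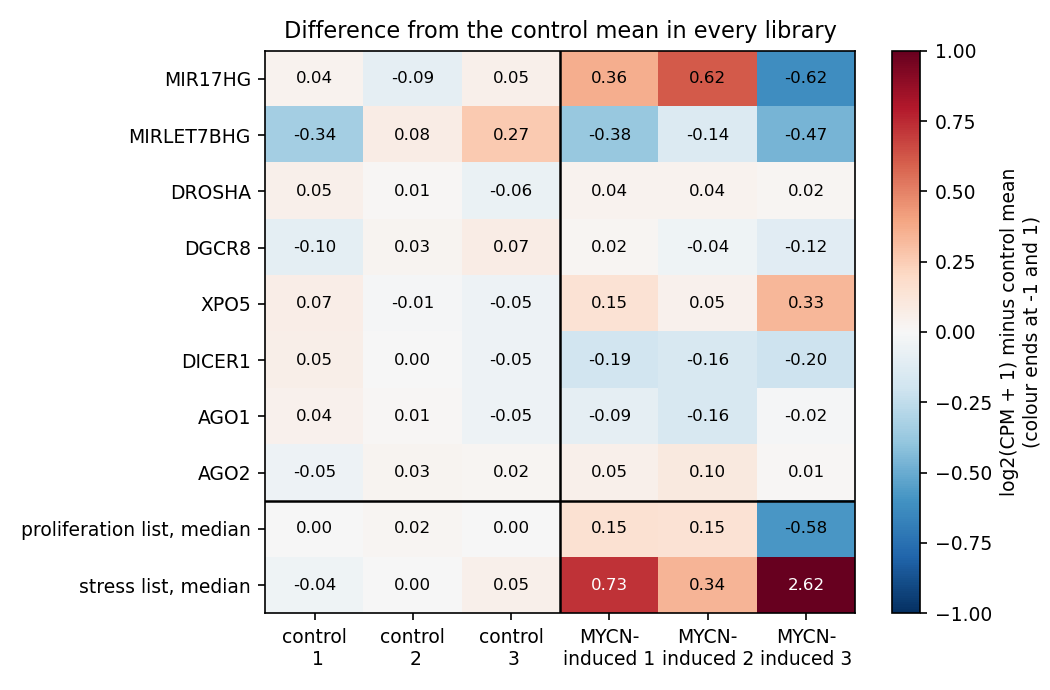
Difference of log2(CPM + 1) from the control mean (colour and printed value) for the 8 tested genes and, under the line, for the medians of 18 proliferation genes and 16 stress genes, in each of the 6 libraries. MIR17HG is at 0.62 in induced replicate 2 and -0.62 in induced replicate 3, where the proliferation median is -0.58 and the stress median 2.62.

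The tested genes whose library-by-library pattern lay closest to MIR17HG, considering only genes that averaged 1 CPM or more, were ADAMTS3 and DEPDC1B. Their root mean square difference from MIR17HG over the 6 libraries, on the same log2 scale, was 0.09 and 0.11. ADAMTS3, a metalloproteinase gene, was at 11.7, 10.3 and 11.4 CPM in control and 15.4, 17.2 and 8.02 CPM in induced cells. DEPDC1B was at 19.99, 18.3 and 18.3 CPM in control and 23.9, 25.003 and 11.3 CPM in induced cells. Both were picked for this closeness, so that their sharing the order of induced libraries, with replicate 3 lowest, is no separate observation.

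Read pairs at the hairpins themselves were few, and pairs that overlap several genes were shared among them in equal fractions. Each of the 6 hairpin genes in MIR17HG lies within its exons and takes 1.9% to 2.3% of them. Hairpin counts here and below were not scaled for library totals, which were 87847999 to 102249336 in control and 64500589 to 91041116 in induced cells. MIR18A had the highest counts, with a sum of 259.3 over the control and 244.5 over the induced libraries, and MIR92A1 had 117 and 126. MIR17 had 83.5 and 77.3, MIR19A 43.5 and 47.3, MIR19B1 34.9 and 36.8, and MIR20A 22 and 19.8. Of the 5 that were tested, 0 were called in either direction by edgeR or at an unadjusted p under 0.05, with log2 fold changes from 0.16 to 0.45. Such counts come from the precursor transcript, since mature microRNAs were not measured in these libraries.

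MCM7, a subunit of the replicative helicase, holds the hairpins of miR-106b, miR-93 and miR-25 and was added for the seeds it shares with MIR17HG after its values were seen. It was at 237, 254 and 244 CPM in control and 266, 258 and 221 CPM in induced cells. The groups overlapped, and the log2 fold change was 0.02 (edgeR adjusted p 0.933). As for MIR17HG, induced replicate 3 was the lowest library.

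MIRLET7BHG (ENSG00000197182, chromosome 22, 46053869 to 46113928, plus strand) was at 11.5, 15.6 and 18.0 CPM in control and 11.1, 13.3 and 10.4 CPM in induced cells. Control replicate 1 lay within the induced range, and the controls spread more (SD 3.30 CPM) than the induced libraries (SD 1.51 CPM). The log2 fold change was -0.37 (SE 0.17, 95% interval -0.77 to 0.04), with an unadjusted p of 0.0684 and an adjusted p of 0.309 (edgeR), and the interval of the change was -41.4% to 2.47%. The value was -0.22 without control replicate 3 and -0.53 without control replicate 1 (edgeR adjusted p 0.607 and 0.153). CSPG4, which encodes a proteoglycan, and the antisense transcript PIK3CD-AS2 had the closest patterns, at root mean square differences of 0.04 and 0.06 on the log2 scale. CSPG4 was at 61.6, 89.3 and 97.3 CPM in control and 63.2, 70.6 and 60.0 CPM in induced cells. Since it was picked for its closeness, its low control replicate 1 is no separate observation.

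At the let-7 hairpins of this host, MIRLET7B held 18.3 counts over the control and 15.0 over the induced libraries, and MIRLET7A3 held 7.5 and 8.5, too few for a test. MIR3619, which lies in the host on the same strand and outside its exons, held 74, 72 and 59 counts in control and 36, 44 and 36 in induced cells. Its log2 fold change of -0.54 (SE 0.20) had an unadjusted p of 0.0300 and an adjusted p of 0.210 (edgeR). MIR4763 held 28.8 and 16.0 counts, with an adjusted p of 0.702 (edgeR). The overlapping genes PRR34 and PRR34-AS1, which share 52 exon bases each with the host, were at no more than 0.70 and 1.06 CPM.

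Because 9 mature forms share the let-7 seed, the genes around all 12 let-7 and miR-98 hairpins were compared as well. They are 8 genes: the non-coding MIRLET7BHG, MIRLET7A1HG, MIRLET7IHG, MIR100HG and MIR99AHG, and the protein-coding HUWE1, WDR82 and SPACA6. HUWE1, a ubiquitin ligase gene around miR-98 and let-7f-2, was the highest, from 801 to 889 CPM in control and 767 to 948 CPM in induced cells. WDR82 followed, at 113 to 116 CPM and 98.2 to 108 CPM. The non-coding hosts lay between 10.4 and 39.0 CPM in all libraries. None of the 8 was called by edgeR, and SPACA6, the gene around let-7e, had the smallest p (log2 fold change -0.33, unadjusted p 0.0217, adjusted p 0.179). The log2 fold changes ran from -0.37 for MIRLET7BHG to 0.14 for MIR100HG, and 6 of the 8 were below 0. Read pairs at MIR98 numbered 240 in control and 248 in induced libraries (log2 fold change 0.31, edgeR adjusted p 0.400). At MIRLET7D they numbered 77.5 and 47.5 (log2 fold change -0.44, edgeR adjusted p 0.402).

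**Figure D3:**
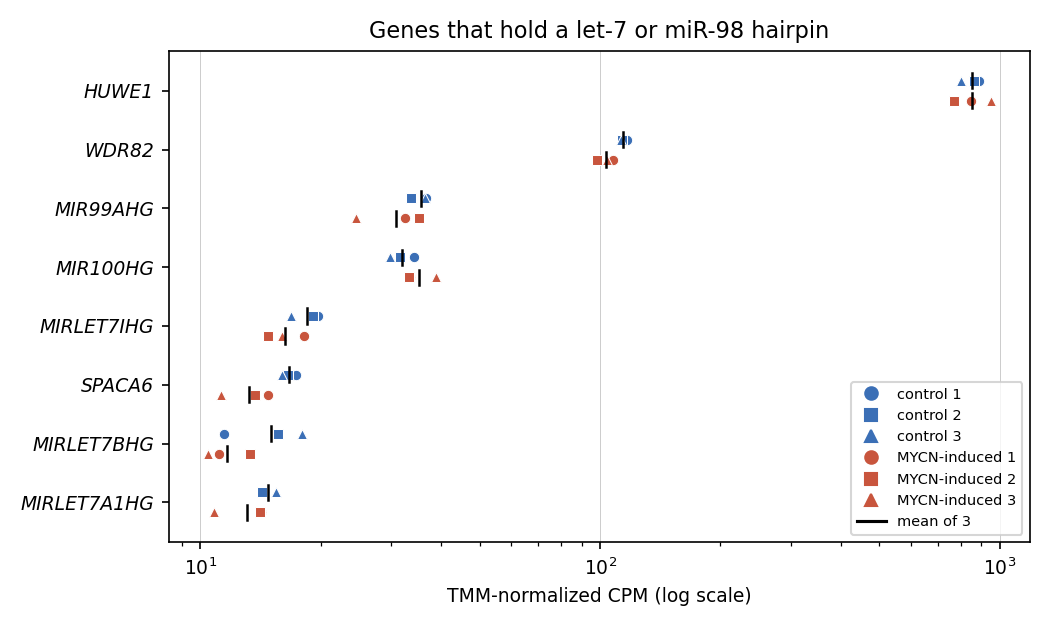
Level in TMM-normalized CPM (log axis) of the 8 genes that hold a let-7 or miR-98 hairpin on the same strand, with each control (blue) and induced (red) library as a point and the group mean as a black bar. MIRLET7BHG, from 10.4 to 18.0 CPM, is among the lowest, and HUWE1, from 767 to 948 CPM, is the highest.

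LIN28B (ENSG00000187772, chromosome 6, 104936616 to 105083332, plus strand) held 2 counts in each control library and 5, 13 and 1 counts in induced replicates 1, 2 and 3. These correspond to 0.02 CPM in each control and at most 0.14 CPM in induced cells, where 3 counts equal 0.0287 to 0.0462 CPM depending on the library. Replicates 1 and 2 of the induced cells were above every control and replicate 3 was below, on 25 counts in all 6 libraries. The gene was under the filter of 10 counts in 3 libraries. Tested without that filter, it had an unadjusted p of 0.0436 and an adjusted p of 0.336 (edgeR). LIN28A, the paralog, was at 0.0197 to 0.153 CPM, and LIN28B-AS1, which shares 181 exon bases on the opposite strand, had no more than 0.0113 CPM.

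The other genes of the LIN28 axis were well measured. TUT4 and TUT7, which add uridines to precursor let-7 held by LIN28 proteins, were at 117 to 133 CPM and 47.2 to 54.7 CPM over the 6 libraries. DIS3L2, the exonuclease that degrades the tailed precursor, was at 44.5 to 50.7 CPM. TENT2, a terminal nucleotidyltransferase, was at 77.1 to 90.5 CPM. Of these 4 genes 0 were called by edgeR, and none reached an unadjusted p under 0.05. The lowest unadjusted p was 0.259, for TENT2 (log2 fold change -0.08, SE 0.07), and DIS3L2 followed with 0.338 (log2 fold change -0.07).

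MIR34AHG (ENSG00000228526, chromosome 1, 9148011 to 9198906, minus strand) was as low as LIN28B. The libraries held 1.5, 5 and 2 counts in control and 2, 4 and 1 counts in induced cells, and the groups overlapped. The hairpin gene MIR34A was at 0 in every library, which allows up to 3 counts in each by counting error alone. The antisense LNCTAM34A, which shares 431 exon bases with the host, reached 0.128 CPM in control replicate 3 and was at 0 in induced replicates 2 and 3. No difference was detectable for MIR34AHG at this depth.

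DROSHA (ENSG00000113360, chromosome 5, 31400494 to 31532196, minus strand), the nuclear endonuclease, was at 188, 182 and 173 CPM in control and 186, 186 and 183 CPM in induced cells. All induced values lay within the control range, and the log2 fold change was 0.03 (SE 0.06, edgeR adjusted p 0.848), and its sign turned with other scalings (-0.0032 with library size only, -0.0020 with upper-quartile normalization). The 95% interval ran from a change of -7.37% to one of 12.5%. DROSHA was the one member whose exons overlap no other gene.

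DGCR8 (ENSG00000128191, chromosome 22, 20080232 to 20111877, plus strand), the RNA-binding partner of DROSHA, was at 63.8, 69.8 and 72.0 CPM in control and 69.3, 66.4 and 63.1 CPM in induced cells. The groups overlapped, with a log2 fold change of -0.05 (SE 0.07, edgeR adjusted p 0.788) and an interval of the change from -14.1% to 8.93%. An opposite-strand transcript, ENSG00000243762, shares 526 bases (7.2% of the exon bases of DGCR8) with it, so that reads there cannot be told apart without strand, and was at 5.03 to 5.78 CPM. The hairpin genes MIR3618 and MIR1306, which lie in DGCR8 exons and are cut by the Microprocessor itself, held 323 and 650 counts in control and 356 and 568 in induced libraries, with log2 fold changes of 0.40 and 0.06 (edgeR adjusted p 0.276 and 0.922).

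XPO5 (ENSG00000124571, chromosome 6, 43522334 to 43576038, minus strand), the exporter of hairpin precursors, was at 135, 128 and 124 CPM in control and 143, 133 and 163 CPM in induced cells. Induced replicate 3 was the highest library and replicate 2 lay within the control range. The log2 fold change was 0.18 (SE 0.09, 95% interval -0.02 to 0.38), with an unadjusted p of 0.0697 and an adjusted p of 0.311 (edgeR), and it was 0.11 (SE 0.06, adjusted p 0.285) without induced replicate 3. XPO5 shares 348 exon bases (4.1%) with POLR1C on the opposite strand. POLR1C, an RNA polymerase subunit gene, was at 43.0 to 49.6 CPM in control and 42.5 to 48.8 CPM in induced cells (log2 fold change 0.00).

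DICER1 (ENSG00000100697, chromosome 14, 95086228 to 95158010, minus strand), the cytoplasmic endonuclease and itself a let-7 target, was at 198, 190 and 184 CPM in control and 167, 170 and 165 CPM in induced cells. Every induced library was below every control. The log2 fold change was -0.19 (SE 0.06), a change of -12.1% with a 95% interval from -20.2% to -3.2%. The unadjusted p was 0.0151 and the adjusted p 0.149 (edgeR), so that the gene did not pass the threshold over all tested genes. Without induced replicate 3 the value was -0.17 (SE 0.05, adjusted p 0.0826), and it was below 0 under all 14 alternatives, from -0.22 to -0.16. DICER1-AS1, which shares 80 exon bases, was at 2.82 to 3.92 CPM.

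AGO1 (ENSG00000092847, chromosome 1, 35869808 to 35930532, plus strand) and AGO2 (ENSG00000123908, chromosome 8, 140520156 to 140635633, minus strand) encode Argonautes, and AGO2 is the one of the pair known for efficient slicing of target RNA. AGO1 was at 179, 175 and 168 CPM in control and 164, 156 and 172 CPM in induced cells. Induced replicates 1 and 2 lay below every control and replicate 3 within their range. Its log2 fold change was -0.09 (SE 0.07, edgeR adjusted p 0.542), an interval of the change from -15.2% to 4.6%. AGO2 was at 355, 375 and 374 CPM in control and 380, 394 and 371 CPM in induced cells, with overlapping groups. Its log2 fold change was 0.05 (SE 0.06, edgeR adjusted p 0.710), an interval of the change from -5.98% to 14.4%.

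**Figure D4:**
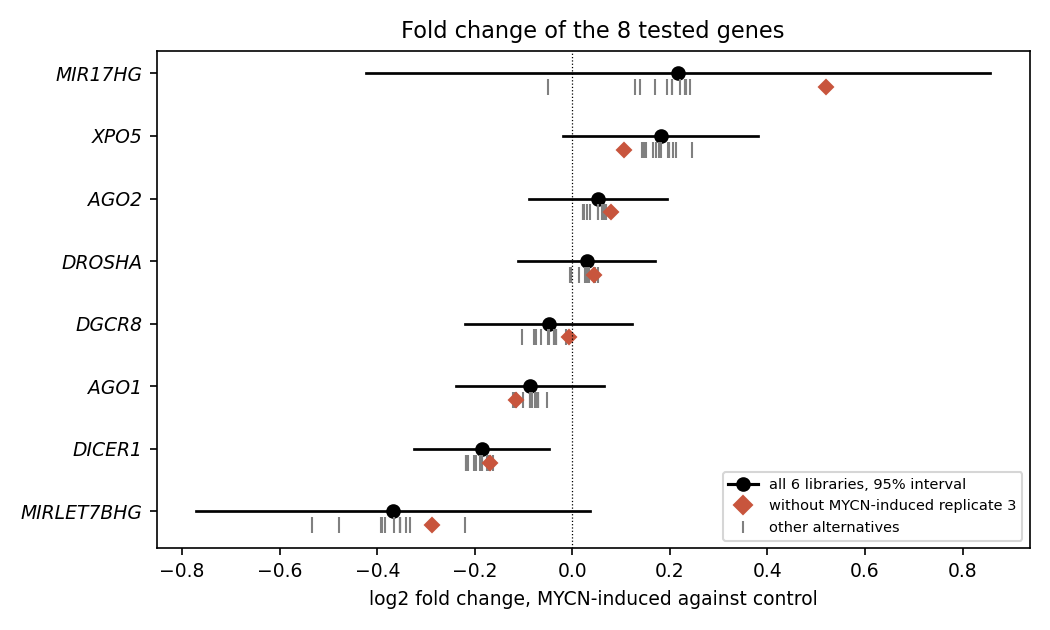
Log2 fold change of MYCN-induced against control cells for the 8 tested genes: black points with 95% intervals from all 6 libraries, red diamonds from the fit without induced replicate 3, grey ticks from the other alternatives. The interval of DICER1 lies below 0 before adjustment over all genes, and MIR17HG has the widest interval, from -0.42 to 0.86, and moves to 0.52 without replicate 3.

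Precision differed between hosts and machinery. The coefficient of variation among the 3 libraries of a group was between 0.78% and 6.22% for DROSHA, DGCR8, DICER1, AGO1 and AGO2, and 4.42% and 10.3% for XPO5. It was 5.61% in control but 40.6% in induced cells for MIR17HG, and 21.9% and 13% for MIRLET7BHG. Standard errors of the log2 fold change were 0.06 to 0.09 for the 6 machinery genes, against 0.17 for MIRLET7BHG and 0.28 for MIR17HG.

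The wider pathway was described with 67 further genes of nuclear processing, export and dicing, the silencing complex, deadenylation and decapping, and the LIN28 axis, of which 66 were tested. None of the 66 was called by edgeR, while 3 had an unadjusted p under 0.05 in the higher and 5 in the lower direction. Of all 29086 tested genes, 2365 in the higher and 3080 in the lower direction had such a p. Their median log2 fold change was 0.02, and the median size of the change, regardless of sign, was 0.08 against 0.17 for all tested genes, which were not matched to them for level. The 66 genes and the members in the same lists ranged from -0.34 to 0.41, whereas all tested genes ranged from -3.60 to 5.16.

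Among 20 nuclear processing genes, METTL3, which methylates primary microRNA transcripts, and ADARB1, an adenosine deaminase, had the smallest p-values. METTL3 was at 89.7, 85.4 and 85.8 CPM in control and 79.1, 78.2 and 71.4 CPM in induced cells (log2 fold change -0.19, edgeR adjusted p 0.186). ADARB1 was at 41.0, 39.7 and 37.5 CPM and at 33.4, 25.8 and 35.2 CPM (log2 fold change -0.32, adjusted p 0.198 by edgeR). Without overlap of the groups, 2 of the 20 genes (METTL3 and ADARB1) were lower and 0 higher. Among all tested genes 14.7% were lower and 11.5% higher in this way.

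In the export and dicing list of 6 genes, PRKRA, which binds DICER1, came next to DICER1, at 46.2 to 49.8 CPM in control and 52.6 to 53.8 CPM in induced cells (log2 fold change 0.15, edgeR adjusted p 0.272). TARBP2, another DICER1 partner, was at 18.0 to 22.3 CPM and 20.7 to 22.4 CPM. Among 23 silencing complex genes, GEMIN4, found in complexes with Argonautes, was at 21.2 to 22.9 CPM in control and 16.1 to 19.2 CPM in induced cells (log2 fold change -0.34, adjusted p 0.102 by edgeR). DDX6, a helicase that represses translation of target mRNAs, was at 308 to 337 CPM and 274 to 277 CPM (log2 fold change -0.22, adjusted p 0.111 by edgeR). AGO3 and AGO4, the other Argonautes, had log2 fold changes of -0.12 and 0.01 (edgeR adjusted p 0.460 and 0.955).

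Of 19 deadenylation and decapping genes, PAN2, a subunit of a deadenylase, was at 22.4 to 24.9 CPM in control and 16.5 to 20.3 CPM in induced cells (log2 fold change -0.33, adjusted p 0.131 by edgeR). CNOT7, a catalytic subunit of the CCR4-NOT deadenylase, was at 169 to 178 CPM and 187 to 219 CPM (log2 fold change 0.24, adjusted p 0.134 by edgeR). Without induced replicate 3, CNOT7, CNOT6L, FKBP4, FKBP5 and XPO1 were called higher and PAN2 lower among the 72 tested genes of the 5 lists, in the fit that called 3.68% of all genes higher and 4.44% lower. FKBP5, a chaperone partner of HSP90, showed the same order of induced libraries as MIR17HG: 30.9, 30.7 and 29.6 CPM in control, and 45.3, 52.0 and 23.4 CPM in induced cells.

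All genes whose symbol marks a microRNA host transcript numbered 84, and 41 of them were tested. In the 6 libraries 0 were called higher and 2 lower (edgeR), where 1.02% and 2.38% of all tested genes were called, and their median log2 fold change was -0.02. MIR503HG, which carries miR-503 and miR-424, fell from 12.7, 13.6 and 14.2 CPM in control to 8.38, 8.46 and 9.34 CPM in induced cells (log2 fold change -0.63, SE 0.10, edgeR adjusted p 0.0181). MIR31HG fell from 1.05, 1.36 and 1.06 CPM to 0.508, 0.472 and 0.708 CPM (log2 fold change -1.03, SE 0.21, edgeR adjusted p 0.0442). Neither is a member, and both were lower in all induced libraries. Without overlap, 9 of the 41 tested hosts were lower and 6 higher, against 14.7% and 11.5% of all tested genes. Without induced replicate 3, MIR17HG and MIR3150BHG were called higher, and MIR130AHG was called lower beside MIR503HG and MIR31HG. That fit called 3.68% of all tested genes higher and 4.44% lower. Leaving out control replicate 2 or 3, or induced replicate 1 or 2, left 0 called lower, and leaving out control replicate 1 left 1.

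The genes that the microRNAs of the 3 hosts are known to repress were taken from textbook knowledge, 81 in all, of which 74 were tested. By edgeR 5 were called higher and 3 lower. With 1 library left out, those higher ranged from 1 (without any 1 control replicate or induced replicate 1) to 6 (without induced replicate 3). Where only 1 was left it was MYCN, and no other target was called higher in those fits. Those lower ranged from 0 (without control replicate 2) to 7 (without induced replicate 3). Without MYCN, which the construct supplies, 4 of 73 were called higher and 3 lower, where 1.02% and 2.38% of all tested genes were called, and the median log2 fold change was -0.03 against 0.00 for all tested genes. The medians of the let-7, miR-34a and miR-17-92 target lists were -0.04, 0.02 and -0.04.

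Of 29 tested let-7 targets, HMGA1, which encodes a chromatin protein, rose from 107, 140 and 143 CPM to 228, 208 and 275 CPM (log2 fold change 0.86, SE 0.14, edgeR adjusted p 0.0209). IGDCC3, an immunoglobulin superfamily gene, fell from 16.2, 17.7 and 18.6 CPM to 10.3, 10.1 and 7.74 CPM (log2 fold change -0.90, SE 0.13, adjusted p 0.0152 by edgeR). THBS1, an inhibitor of angiogenesis in both the let-7 and the miR-17-92 list, fell from 310, 330 and 302 CPM to 229, 211 and 215 CPM (log2 fold change -0.53, SE 0.07, adjusted p 0.00904 by edgeR). HMGA2, a classical let-7 target, was at 175 to 186 CPM in control and 107 to 159 CPM in induced cells (log2 fold change -0.37, edgeR adjusted p 0.210).

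Of 22 tested miR-34a targets, MET, a receptor tyrosine kinase gene, rose from 0.573, 0.508 and 0.690 CPM to 1.09, 1.11 and 1.59 CPM (log2 fold change 1.10, SE 0.21, adjusted p 0.0379 by edgeR). MYCN, in the let-7 and the miR-34a list, was the other gene called.

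Of 29 tested miR-17-92 targets, CDKN1A, which encodes the cell cycle inhibitor p21, fell from 10.8, 11.7 and 11.2 CPM to 5.09, 4.94 and 7.87 CPM (log2 fold change -0.91, SE 0.18, adjusted p 0.0411 by edgeR). ITGB8, an integrin gene, rose from 5.37, 5.89 and 4.98 CPM to 9.31, 10.1 and 8.56 CPM (log2 fold change 0.78, SE 0.11, adjusted p 0.0151 by edgeR). NR3C1, the glucocorticoid receptor gene, rose from 25.6, 23.7 and 22.7 CPM to 31.2, 30.4 and 35.9 CPM (log2 fold change 0.44, SE 0.09, adjusted p 0.0487 by edgeR), and with library size only or upper-quartile normalization it did not pass the threshold (adjusted p 0.0527 and 0.0672). The list thus held 2 genes called higher and 2 called lower.

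**Figure D5:**
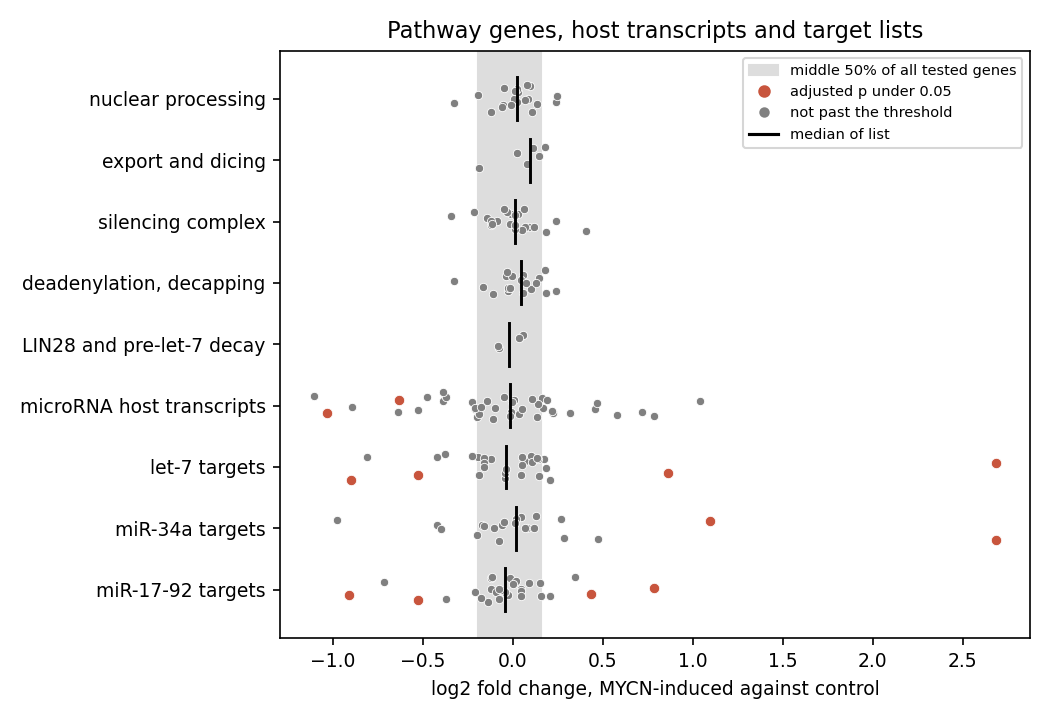
Log2 fold change of every tested gene (points, scattered vertically within a row) in the pathway lists, among microRNA host transcripts and in the target lists, with red for an edgeR adjusted p under 0.05, a black bar for the median and grey shading for the middle 50% of all tested genes (-0.19 to 0.16). The pathway rows hold no red point, the host row holds 2 and the target rows hold points on both sides of 0.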

How the data were processed

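Ribosome-depleted total RNA was sequenced in 3 control and 3 MYCN-induced SK-N-AS libraries with a stranded kit. The authors deposited estimated counts of read pairs per gene, made with STAR and featureCounts. The submitters' processing notes name STAR 2.7.1a, featureCounts 1.5.1 and GRCh38, whereas per the file headers featureCounts v1.6.4 counted exons of unique alignments, gave each gene an equal fraction of a pair that touched several, and left the strand setting at its default. The study's methods name further options, so the counting of opposite-strand genes is uncertain. Between 31.9% and 33.4% of counts above 0 were not whole, and counts were rounded for testing. The 92 spike-in sequences had 0 counts.

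Gene names came from GENCODE release 44, which held 99.65% of identifiers (all 10 members, 8 with the same coordinates). Coordinates are those of the files. A gene entered the test if 3 or more libraries held 10 counts or more. The test was that of edgeR 4.0.16 under R 4.3.3 (TMM, quasi-likelihood, no replicate block, Benjamini-Hochberg threshold 0.05). DESeq2 1.42.0, other normalizations, other filters, a replicate block and omission of each library were alternatives. CPM are TMM-normalized. TPM were computed from the files' exon lengths. In a simulation with 200 genes changed by a fold of 2 among 28586, 181 (90.5%) were called, and 19 unchanged genes were called. The changed genes were drawn from those with more than 100 expected counts in the smallest library. The simulation does not show how often smaller changes, such as those of the members, would be called. Replicates differed by more than sampling noise (chi-square per gene 12.1 to 149). The members and lists were chosen with earlier results of these data known. Named genes are all members, hairpin genes in their hosts and of let-7, genes sharing exons with them, the 2 nearest patterns per host, and per list the genes past the threshold, with the 2 smallest p-values where fewer than 2 passed. Other named genes (MCM7, let-7 host genes, AGO3, AGO4, TARBP2, HMGA2, FKBP5, MKI67, MCM2 and MCM5, and those called under an alternative) were added after their values were seen. Patterns were compared on log2(CPM + 1). Some items are not reported here. Intervals from counts cover counting error only.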

Additional observations from a re-analysis of the deposited data

How the results depend on the processing

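Of the 8 tested members, 0 were called lower under each of the 14 alternatives, and 0 were called higher except for MIR17HG without induced replicate 3, so that leaving out 1 library gave 0 to 1. DESeq2 called 1 host transcript higher (main count 0), and leaving out 1 library gave 0 to 2. The host transcripts called lower numbered 1 with at least 100 counts in every library and 1 with the replicate block (main count 2), and 0 to 3 with 1 library left out (0 without control replicate 2 or 3 or induced replicate 1 or 2, 1 without control replicate 1). Pathway genes called higher ranged from 0 to 5 and lower from 0 to 1 when 1 library was left out, with the highest values without induced replicate 3. Target genes called higher ranged from 1 to 6 and lower from 0 to 7. Without any 1 of the control replicates or induced replicate 1, the only target called higher was MYCN. Target genes called lower numbered 5 with library size only, upper-quartile normalization or DESeq2 (main count 3).

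Over all genes, DESeq2 called 904 higher and 1199 lower, no count filter gave 470 higher, and at least 100 counts in every library gave 404 lower. With 1 library left out, 18 to 1060 were called higher and 72 to 1279 lower: 18 and 72 without control replicate 2, 30 and 135 without control replicate 3, 46 and 181 without control replicate 1, 73 and 216 without induced replicate 1, 169 and 297 without induced replicate 2, and 1060 and 1279 without induced replicate 3. The log2 fold change of MIR17HG ran from -0.0499 to 0.5193 with 1 library left out. That of DROSHA ran from -0.0047 to 0.0523 there and turned to -0.0032 with library size only, -0.0020 with upper-quartile normalization and -0.0047 without control replicate 3. The cause of these changes was not tested.

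Same-numbered libraries deviated together with correlations of 0.31, 0.02 and 0.09, so the numbers were not taken as pairs. With the replicate block 265 genes were called higher and 575 lower, and 0 members. Of the host and target genes named as called, NR3C1 and MIR31HG did not pass with the replicate block (edgeR adjusted p 0.0788 and 0.0648), and the others did.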

Other observations

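Some target genes passed the threshold only when a library was left out or another tool was used, and they were chosen after their values were seen. MYC, a target in the let-7 and miR-34a lists, was at 48.8, 53.4 and 56.2 CPM in control and 37.6, 37.5 and 66.9 CPM in induced replicates 1, 2 and 3. Without induced replicate 3 its log2 fold change was -0.48 (SE 0.08, edgeR adjusted p 0.0160). In the same fit CDK6 and IGF1R were called lower, with log2 fold changes of -0.26 and -0.21. Of all genes tested there, 3.68% were called higher and 4.44% lower. DKK3 was called lower in that fit (log2 fold change -0.41) and by DESeq2 (-0.35), and DLL1 was called lower by DESeq2 (-0.96) and with the replicate block (-0.98).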
